A study of Mus musculus with 21 samples.

Results

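The 33 genes described here form the route by which pyruvate and glutamate carbon enter and pass through the tricarboxylic acid (TCA) cycle. They were taken by gene name from a list drawn up with earlier results of these data known, and all 33 were found among the 47069 rows of the count table. RNA was sequenced from bone marrow-derived macrophages, cells that M-CSF-conditioned medium drives out of mouse marrow over 5 days, here exposed for a further 36 h to a cytokine or to none. The 21 libraries formed 7 groups of 3. Of the wild-type C57BL/6 groups, 1 had no cytokine, 1 had IL-33 and 1 had IL-4. Another pair of groups, with and without IL-33, carried the label ST2-/- on C57BL/6, the name of the IL-33 receptor chain. The last pair, Cx3cr1CRExGata3fl/fl on C57BL/6, was likewise kept with and without IL-33; there Cre recombinase under the Cx3cr1 gene should delete Gata3 in cells that use that gene.

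As background, pyruvate enters the mitochondrion through a carrier and is turned into acetyl-CoA by the pyruvate dehydrogenase complex, which kinases switch off and phosphatases switch on. The TCA cycle then oxidizes acetyl-CoA, while glutamate enters at alpha-ketoglutarate through glutamate dehydrogenase or transaminases, and citrate leaves for fatty acid synthesis. In macrophages, alternative activation by IL-4 is known for oxidative metabolism, and inflammatory activation for breaks in the cycle that let citrate and succinate build up.

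Depth ranged from 32.6 to 48.7 M counted reads per library, and the members took 0.294% to 0.358% of them. Nothing in the labels says that the 3 libraries of a group came from separate animals, so p-values measure the spread between libraries, which may be partly technical. Gene-level counts check neither deletion: without cytokine, Il1rl1 (the ST2 gene) had 15.7 ± 1.45 CPM in wild-type and 17.4 ± 2.95 CPM in ST2-/- libraries, and Gata3 had 0.147 ± 0.0339 CPM in wild-type and 0.246 ± 0.187 CPM in floxed ones (SD, n = 3 each). CPM are reads of a gene scaled to a common library total. Reads outside the deleted exons say nothing about a deletion, so the text speaks of ST2KO-labelled and floxed-labelled cells. The 6 floxed-labelled libraries held Xist at 277 to 376 CPM, against at most 0.0462 CPM in the other 15, which held the Y-linked Ddx3y at 61.0 to 86.3 CPM. Sex and the floxed genotype therefore cannot be told apart. The macrophage genes listed summed to 14237 to 40226 CPM over the libraries. Adgre1, encoding F4/80, had a mean of 1619 CPM in unstimulated wild-type cells. Of the 10 lymphocyte genes listed, 9 were under 1 CPM in every group. The remaining one, Il7r, carried that list's sum, which ran from 127 to 325 CPM over the libraries. The 10 neutrophil genes listed summed to 121 to 533 CPM, and 1 to 3 of them, Ly6g always included, were under 1 CPM in a group's mean.

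The sequences just upstream of 4 members are shown because the results below turn on them and their RefSeq and GENCODE starts coincide: Fh1 and Pdk1 rose more with IL-33, Got1 moved in opposite directions under the 2 cytokines, and Pcx fell with IL-4. Each is the 250 bases before the RefSeq start on assembly GRCm38.p6, written along the gene's own strand, and capitals mark every match to the motifs searched. For Fh1 the window is chr1:175625636-175625885 (minus strand), for Got1 chr19:43524606-43524855 (minus strand), for Pcx chr19:4510222-4510471 (plus strand) and for Pdk1 chr2:71872974-71873223 (plus strand). Pcx and Pdk1 each have another RefSeq start farther along, not shown.
Fh1: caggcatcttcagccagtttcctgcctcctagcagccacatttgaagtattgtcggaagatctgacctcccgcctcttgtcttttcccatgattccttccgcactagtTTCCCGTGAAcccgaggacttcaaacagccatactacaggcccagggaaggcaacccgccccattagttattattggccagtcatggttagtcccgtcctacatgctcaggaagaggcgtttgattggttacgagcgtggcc
Got1: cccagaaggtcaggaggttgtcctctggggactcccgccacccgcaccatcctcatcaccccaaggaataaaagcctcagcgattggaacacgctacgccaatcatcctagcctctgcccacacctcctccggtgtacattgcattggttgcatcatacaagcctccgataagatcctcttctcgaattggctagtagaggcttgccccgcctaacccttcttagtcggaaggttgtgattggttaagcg
Pcx: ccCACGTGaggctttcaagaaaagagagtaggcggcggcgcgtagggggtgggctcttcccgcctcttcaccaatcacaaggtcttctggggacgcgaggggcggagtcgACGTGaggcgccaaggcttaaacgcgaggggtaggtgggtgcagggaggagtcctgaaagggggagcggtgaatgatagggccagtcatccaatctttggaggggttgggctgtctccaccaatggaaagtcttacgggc
Pdk1: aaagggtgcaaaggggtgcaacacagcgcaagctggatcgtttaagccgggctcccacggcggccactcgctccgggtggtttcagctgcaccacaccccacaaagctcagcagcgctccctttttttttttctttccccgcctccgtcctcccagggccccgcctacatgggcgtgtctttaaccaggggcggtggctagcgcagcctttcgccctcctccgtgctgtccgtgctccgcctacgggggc
The motifs, read on both strands, were CACGTG, the shorter ACGTG that lies within it, TGCGCANGC, TNAAGGTCA, and TTC and GAA separated by any 4 bases. They are letters associated in textbooks with E-box and hypoxia factors, NRF1, ERR nuclear receptors and STAT proteins. In the windows of 300 bases around each start (250 before, 50 after), Fh1 held 1 TTC-GAA match, which starts 142 bases before its start site. Pcx held 1 CACGTG and 1 further ACGTG, while Got1 and the Pdk1 window shown held none of the 5. The related hypoxia-factor form GCGTG was not searched. Read on both strands, it occurs unmarked in the Fh1, Got1 and Pdk1 sequences shown, so the absence of ACGTG does not mean the absence of such letters. RefSeq windows were found for 30 of the 33 members, and Pdp1, Idh3a and Me2 had none. Among those 30 genes, 3 held CACGTG (10%, against 8.09% of all 27025 genes with a window), 9 held ACGTG (30% against 21.8%), 4 held TGCGCANGC (13.3% against 4.70%), 2 held TTC-GAA (6.67% against 8.01%) and none held TNAAGGTCA (against 1.43%). Members' windows were richer in G and C, with a median of 61.7% against 52.7% over all windows, and the part of base composition in these shares was not tested. These matches describe letters only, and no binding was measured.

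The first comparison asked which of these transcripts change when macrophages meet IL-33, an alarmin released by damaged tissue. In wild-type cells IL-33 raised 15 of the 32 members that could be tested and lowered 3, at a Benjamini-Hochberg adjusted p under 0.05 in edgeR's quasi-likelihood test. Over all 14473 genes tested, 18.5% were called higher and 16.9% lower (2676 and 2446 genes). Under upper-quartile scaling 2251 genes were higher and 3010 lower, and 14 members higher and 4 lower. The members' median change was 0.18 on the log2 scale, against -0.00 for all genes tested. Summed over members, the level went from 3050 to 3086 CPM without cytokine to 3564 to 3629 CPM with IL-33. In bulk RNA, more cells of a kind and more RNA per cell cannot be told apart. Of the other lists, 7 of 9 tested neutrophil genes were called higher with IL-33, and their summed level was 378 to 523 CPM against 121 to 134 CPM. Most of that sum was Mmp8 and Csf3r. None of the 9 was called lower, their median change was 1.16 log2, and Ly6g was at 0.0170 CPM with IL-33. Also called higher were 4 of 8 dendritic cell genes (sum 21.9 to 25.2 against 11.4 to 11.5 CPM) and 2 of 6 stromal genes. Of 6 mast cell and basophil genes 3 were higher and 1 lower, and of 8 macrophage genes 5 were higher and 1 lower. The eosinophil and proliferation lists each had 1 gene higher, and the lymphocyte list 1 lower. The part of other cells in the members' changes was not tested.

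**Figure D1:**
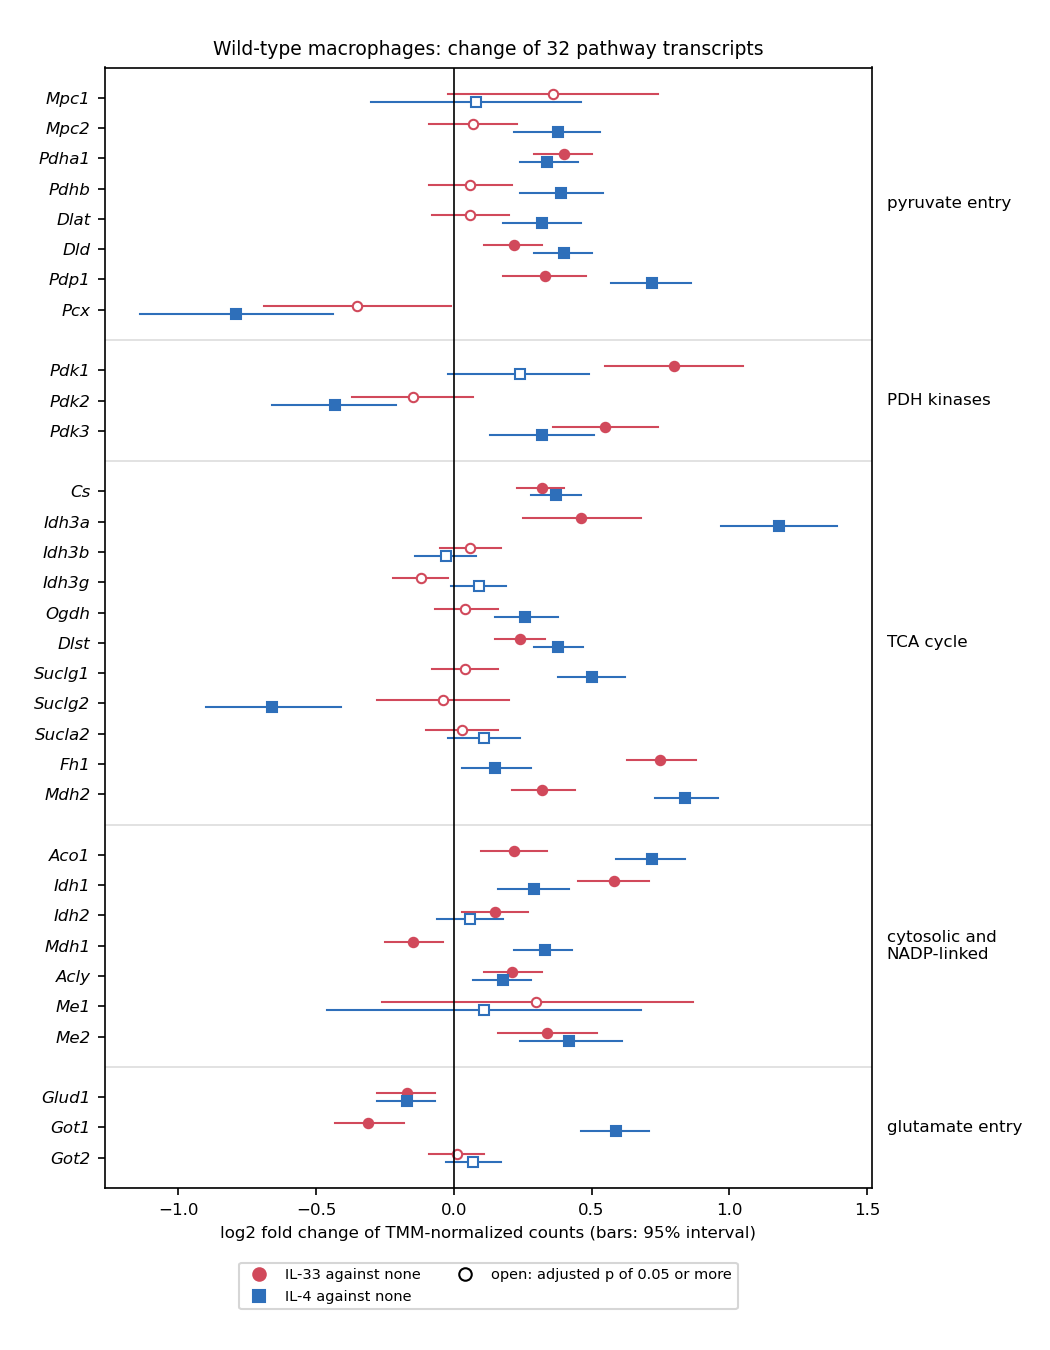
Log2 fold change (x axis) of 32 members (rows, grouped by role) in wild-type macrophages given IL-33 (circles) or IL-4 (squares) against no cytokine. Bars are 95% intervals from the edgeR fit and open symbols did not pass the adjusted p of 0.05; Fh1 and Pdk1 lie farthest right for IL-33, and Idh3a and Mdh2 for IL-4, while Got1 lies on opposite sides of 0.

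Of the 8 genes for pyruvate entry, 3 rose with IL-33 and none fell. Pdha1, the catalytic alpha subunit of pyruvate dehydrogenase, rose 1.32-fold (95% interval 1.22 to 1.42). Pdp1, the phosphatase that switches the complex on, rose 1.26-fold, and Dld, the shared dihydrolipoamide dehydrogenase, 1.16-fold. Pdhb, the beta subunit that pairs with Pdha1, did not pass the test (0.06 ± 0.07 log2, adjusted p = 0.571), nor did Dlat, the acetyltransferase core (0.06 ± 0.07, adjusted p = 0.528). In wild-type cells the ratio of Pdha1 to Pdhb in CPM per kilobase of exon was 0.834 to 0.881 without cytokine and 1.00 to 1.18 with IL-33, with no overlap. In floxed-labelled cells it was 0.839 to 0.927 and 0.944 to 1.12. Without cytokine, ST2KO-labelled libraries already ran from 0.843 to 1.05, into the wild-type IL-33 range, and with IL-33 from 0.9 to 1.11. Pcx, pyruvate carboxylase, which makes oxaloacetate from pyruvate, stood at 6.40, 6.07 and 5.66 CPM without cytokine and 5.10, 5.09 and 4.03 CPM with IL-33. Those libraries did not overlap, but the difference did not pass (-0.35 ± 0.16, adjusted p = 0.0949).

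The pyruvate dehydrogenase kinases, which switch the complex off, held the member with the largest IL-33 change. Pdk1 (chromosome 2, 71873224 to 71903858) stood at 152, 181 and 162 CPM without cytokine and at 273, 293 and 295 CPM with IL-33. Every IL-33 library lay above every unstimulated library, and the rise was 1.74-fold (0.80 ± 0.12 log2, adjusted p = 1.1e-05). Pdk3 (chromosome X, 93764607 to 93832201) went from 11.3, 12.8 and 12.1 CPM to 17.3, 16.9 and 19.0 CPM, again without overlap, a 1.46-fold rise (0.55 ± 0.09, adjusted p = 3.2e-05). Pdk2 (chromosome 11, 95026258 to 95041354) did not pass: its libraries held 18.2, 21.2 and 23.0 CPM without cytokine and 16.3, 20.8 and 19.1 CPM with IL-33 (-0.15 ± 0.10, adjusted p = 0.292). Per kilobase of exon, Pdk1 made up 65.3% ± 1.66 of the transcripts of these 3 kinases without cytokine and 74.2% ± 0.408 with IL-33 (SD, n = 3). The share of Pdk2 was 20.2% ± 1.69 and 11.9% ± 0.979 in the same groups. Pdk4, the kinase known from fasting, had 0 counts in all 21 libraries, which allows a level of up to 0.0615 to 0.0919 CPM per library (3 counts, counting error only).

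Within the TCA cycle itself, 5 of 11 members rose with IL-33 and none fell. Fh1 (chromosome 1, 175600374 to 175625635), encoding fumarase, which hydrates fumarate to malate, stood at 62.4, 63.9 and 71.0 CPM without cytokine. With IL-33 it stood at 105, 115 and 112 CPM, above every unstimulated library by a wide margin. The rise was 1.68-fold (0.75 ± 0.06 log2, adjusted p = 8.1e-10), the smallest p among the members in this comparison. Idh3a (chromosome 9, 54586334 to 54604661), the catalytic subunit of the NAD-linked isocitrate dehydrogenase, went from 18.4, 21.7 and 17.7 CPM to 26.6, 27.5 and 25.4 CPM, a 1.38-fold rise (adjusted p = 7.6e-04). Mdh2 (chromosome 5, 135778480 to 135790398), the mitochondrial malate dehydrogenase that follows fumarase, rose 1.25-fold, Cs (citrate synthase) 1.24-fold and Dlst (the succinyltransferase of the alpha-ketoglutarate dehydrogenase complex) 1.18-fold. The other 6, among them Sucla2 (0.03 ± 0.06) and Suclg1 (0.04 ± 0.06) of succinyl-CoA ligase, did not pass.

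Among the cytosolic and NADP-linked enzymes, 5 of 7 rose and 1 fell. Idh1 (chromosome 1, 65158616 to 65186500), the cytosolic NADP-linked isocitrate dehydrogenase, had the highest level per kilobase of all members in unstimulated cells (181 CPM per kilobase, ahead of Glud1 at 105). It went from 492, 480 and 532 CPM to 757, 733 and 760 CPM without overlap, a 1.5-fold rise (0.58 ± 0.06 log2, adjusted p = 9.9e-08). Me2 (mitochondrial malic enzyme) rose 1.26-fold, Aco1 (cytosolic aconitase) 1.16-fold, Acly (ATP citrate lyase, which splits citrate for lipid synthesis) 1.16-fold and Idh2 (mitochondrial NADP-linked isocitrate dehydrogenase) 1.11-fold. Mdh1, the cytosolic malate dehydrogenase of the malate-aspartate shuttle, fell 1.11-fold (adjusted p = 0.0242) while its mitochondrial counterpart rose. The ratio of Mdh2 to Mdh1 per kilobase was 0.440 to 0.491 without cytokine and 0.631 to 0.676 with IL-33.

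Of the 3 genes for glutamate entry, 2 fell with IL-33. Got1 (chromosome 19, 43499752 to 43524605), the cytosolic aspartate transaminase, went from 68.7, 72.4 and 72.4 CPM to 64.5, 53.8 and 54.3 CPM. The groups did not overlap, and the fall was 1.24-fold (-0.31 ± 0.06 log2, adjusted p = 2.9e-04). Glud1, glutamate dehydrogenase, fell 1.13-fold (-0.17 ± 0.05, adjusted p = 0.00871). Got2, the mitochondrial transaminase, had the smallest change of all tested members (0.01 ± 0.05, adjusted p = 0.878).

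Some small IL-33 changes depended on a library or a setting. The call of Mdh1 was lost without replicate 1 of the unstimulated or replicate 2 of the IL-33 wild-type cells (adjusted p = 0.0618 to 0.15), that of Aco1 without the latter (0.0526), and that of Idh2 without replicates 1 or 3 of the unstimulated or 1 or 2 of the IL-33 cells (0.0571 to 0.22). Idh2 was also not called under upper-quartile scaling (0.182), without the expression filter (0.149) or with only the groups compared (0.0922), and Mdh1 not without the filter (0.0691). Idh3g (-0.12 ± 0.05, adjusted p = 0.0603) was called lower under upper-quartile scaling (-0.17, adjusted p = 0.00984), with DESeq2 (-0.12, 0.0497) and without replicate 1 of the unstimulated cells (-0.15, 0.0397).

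IL-4, the cytokine of alternative activation, raised Idh3a, Mdh2, Pdp1, Aco1 and Got1 at least 1.5-fold and lowered Pcx and Suclg2 by as much. Against no cytokine it raised 20 of the 32 tested members and lowered 4, where 25.1% of all genes were called higher and 22.5% lower (3627 and 3263 genes). Under upper-quartile scaling 3209 genes were higher and 3718 lower, and 19 members higher and 4 lower. The members' median was 0.30 log2, against 0.00 for all genes tested, and their summed level was 3602 to 3693 CPM. Both cytokine comparisons use the same 3 unstimulated libraries, so their values are given side by side and no overlap is drawn from them. With IL-4, 7 of 10 proliferation genes were also called higher (summed level 1062 to 1099 CPM, against 666 to 724 without cytokine), and the macrophage list, mostly Lyz2, summed to 14237 to 15756 CPM against 27133 to 30030. Of the 8 macrophage genes, 3 were called higher and 5 lower, all 5 by at least 1.5-fold. The lymphocyte sum, nearly all Il7r, was 317 to 325 CPM with IL-4 against 150 to 178. The part of any of these in the members' changes was not tested.

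Of the 8 transcripts for pyruvate entry, 6 were called higher with IL-4 and 1 lower. Pdp1 (chromosome 4, 11958184 to 11966452) went from 33, 34.6 and 33.4 CPM to 56.2, 55.1 and 54.8 CPM, a 1.64-fold rise without overlap (0.72 ± 0.07 log2, adjusted p = 1.0e-08). Its IL-33 libraries, at 45.5, 43.9 and 37.3 CPM, lay between those groups. The 4 subunit genes of the complex, Dld, Pdhb, Pdha1 and Dlat, rose 1.32-, 1.31-, 1.27- and 1.25-fold, and the carrier subunit Mpc2 rose 1.30-fold. Pcx (chromosome 19, 4510472 to 4621752) was the exception in this group. Its IL-4 libraries held 4.05, 3.70 and 2.80 CPM, below all 3 unstimulated ones, a 1.73-fold fall (-0.79 ± 0.16, adjusted p = 3.2e-04).

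Mpc1, the other subunit of the mitochondrial pyruvate carrier, was counted at only 5.47 CPM in unstimulated wild-type cells and did not pass in any comparison. Its counts are uncertain: 16.6% of its stretches of 100 bases recur in other genes, and the retrocopy Mpc1-ps was counted at 25.5 ± 2.09 CPM in the same cells. Mpc1-ps was higher with IL-33 (0.28 ± 0.08 log2, adjusted p = 0.00622) and not called with IL-4 (-0.02 ± 0.08, adjusted p = 0.823). Reads that fit both places could have been dropped or placed at either. Me1, Got2, Pdha1 and Suclg2 also shared 8.60% to 14.6% of their stretches with other genes, and 330 stretches of Pdha1 match Map3k15, which overlaps it on the opposite strand.

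Of the kinases, Pdk3 rose and Pdk2 fell with IL-4, while the call of Pdk1 depended on the fit. Pdk1 stood at 200, 210 and 173 CPM with IL-4, overlapping the unstimulated libraries, and did not pass (0.24 ± 0.12 log2, adjusted p = 0.105). It was called higher without the expression filter (0.22, adjusted p = 9.9e-04) and in a fit of only the groups compared (0.23, 0.0243). Pdk3 rose 1.25-fold (14.5, 16.0 and 14.8 CPM), and Pdk2 fell 1.35-fold to 16.4, 14.5 and 15.3 CPM (-0.43 ± 0.10, adjusted p = 0.00142). In the direct comparison all 3 were higher with IL-33 than with IL-4, Pdk1 by 1.48-fold (adjusted p = 4.6e-04), Pdk2 by 1.22-fold (0.0333) and Pdk3 by 1.17-fold (0.0413). The last 2 calls were each lost without any of 4 libraries, with adjusted p up to 0.155 for Pdk2 (replicates 2 and 3 of both groups) and 0.139 for Pdk3 (replicates 1 and 3 of both groups).

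In the TCA cycle IL-4 raised 7 of 11 members and lowered 1. Idh3a had the largest change of all members: 43.7, 43.0 and 44.3 CPM with IL-4, above the IL-33 libraries, which in turn lay above the unstimulated ones. The rise over unstimulated cells was 2.27-fold (1.18 ± 0.10 log2, adjusted p = 1.1e-09). Its partners in the enzyme, Idh3b and Idh3g, did not pass with IL-4 (-0.03 ± 0.05, adjusted p = 0.679, and 0.09 ± 0.05, adjusted p = 0.138). Per kilobase of exon, Idh3a stood at 0.0956 ± 0.0130 of the level of Idh3b in unstimulated cells, 0.126 ± 0.00723 under IL-33 and 0.221 ± 0.00447 under IL-4 (SD, n = 3). Idh3a was the least abundant transcript of the 3 subunits in every wild-type library. Idh3g differed in the direct comparison, where it was lower with IL-33 than with IL-4 (-0.21 ± 0.05, adjusted p = 0.00137).

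Mdh2 went from 92.7, 96.7 and 89.0 CPM to 167, 173 and 160 CPM with IL-4, with the IL-33 libraries (123, 112 and 114 CPM) between them. The IL-4 rise was 1.79-fold (0.84 ± 0.05 log2, adjusted p = 1.1e-11). Fh1, the preceding enzyme, showed the reverse order: its IL-4 libraries held 71.6, 73.0 and 74.5 CPM, a 1.11-fold rise (adjusted p = 0.0363). That small rise lost its call without any of 5 of the 6 libraries, all but replicate 3 of the unstimulated cells (adjusted p = 0.0830 to 0.176). The ratio of Fh1 to Mdh2 per kilobase was 0.746 ± 0.0784 in unstimulated wild-type cells, 1.00 ± 0.0944 under IL-33 and 0.461 ± 0.0251 under IL-4. The libraries of these 3 groups did not overlap. In floxed-labelled cells the ratio did not move, at 0.684 ± 0.0524 without cytokine and 0.684 ± 0.0468 with IL-33. It was 0.729 ± 0.0206 and 0.705 ± 0.0186 in ST2KO-labelled cells.

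Succinyl-CoA ligase is built from the shared subunit of Suclg1 with either Sucla2 (the ATP-forming enzyme) or Suclg2 (the GTP-forming enzyme). With IL-4, Suclg1 rose 1.41-fold (0.50 ± 0.06 log2, adjusted p = 1.2e-07) and Sucla2 did not pass (0.11 ± 0.06, adjusted p = 0.155). Suclg2 (chromosome 6, 95473009 to 95718800) went from 20.3, 18 and 20.2 CPM to 12.5, 12.2 and 12.4 CPM, a 1.58-fold fall without overlap (-0.66 ± 0.12, adjusted p = 5.3e-05). Its IL-33 libraries, at 20, 19.9 and 16.9 CPM, overlapped the unstimulated ones. The ratio of Sucla2 to Suclg2 was 3.02 ± 0.315 in unstimulated cells, 3.15 ± 0.174 under IL-33 and 5.11 ± 0.109 under IL-4. Of the remaining cycle members, Dlst rose 1.30-fold, Cs 1.29-fold and Ogdh, the alpha-ketoglutarate dehydrogenase itself, 1.20-fold with IL-4.

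**Figure D2:**
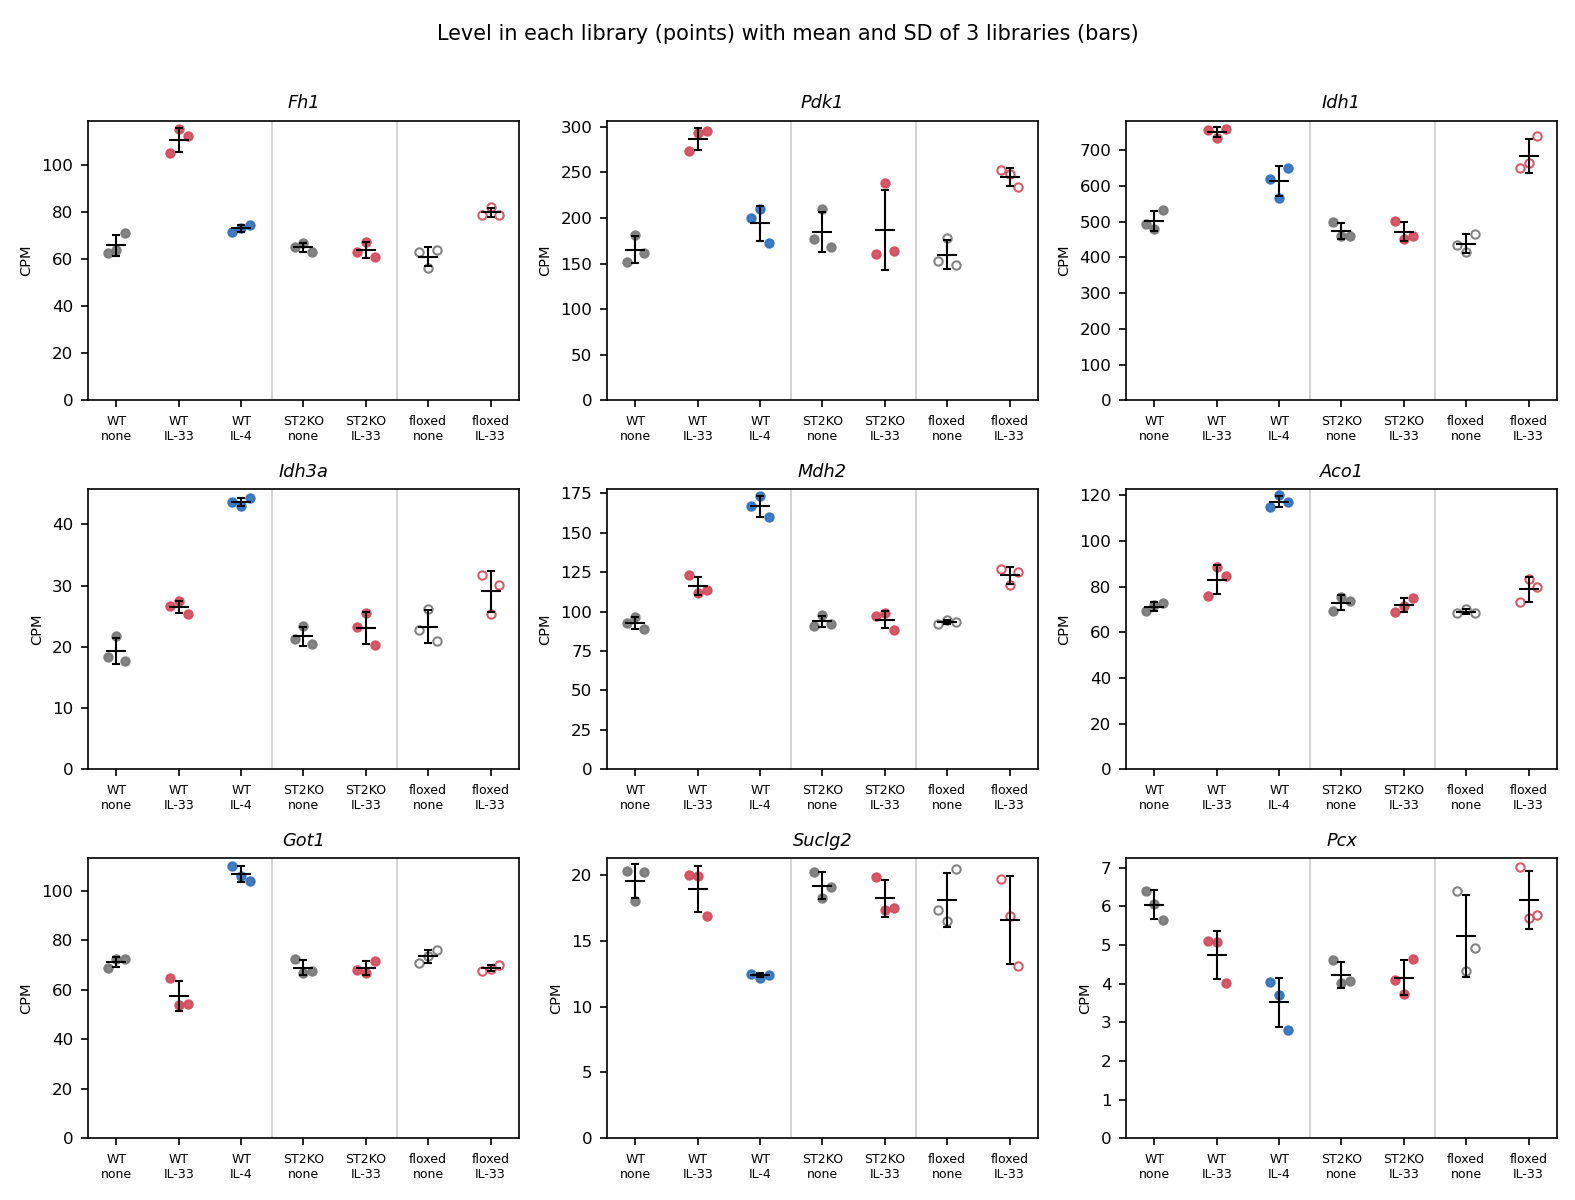
Level in CPM (y axis, linear from 0) of 9 members in each of the 21 libraries, by genotype and cytokine; points are libraries and bars the mean ± SD of 3. Fh1, Pdk1 and Idh1 are highest in wild-type cells with IL-33, Idh3a, Mdh2, Aco1 and Got1 with IL-4, and Suclg2 and Pcx are lowest with IL-4.

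Transcripts of the cytosolic and NADP-linked enzymes rose with IL-4 too, with 5 of 7 called higher and none lower. Aco1 (chromosome 4, 40143081 to 40198338), cytosolic aconitase and iron regulatory protein, went from 69.3, 71.9 and 72.8 CPM to 115, 120 and 117 CPM. No IL-4 library overlapped the other wild-type groups (76.0 to 88.6 CPM with IL-33), and the rise was 1.64-fold (0.72 ± 0.06 log2, adjusted p = 6.2e-10). Me2 rose 1.34-fold, Mdh1 1.26-fold, Idh1 1.22-fold (to 620, 567 and 650 CPM) and Acly 1.13-fold. Idh2 (0.06 ± 0.06) and the cytosolic malic enzyme Me1 (0.11 ± 0.26), counted at 1.96 CPM in unstimulated cells, did not pass.

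Got1 was the member that the 2 cytokines separated most. With IL-4 it stood at 110, 106 and 104 CPM, above all 3 unstimulated libraries, while all 3 IL-33 libraries lay below them. The IL-4 rise was 1.5-fold (0.59 ± 0.06 log2, adjusted p = 2.4e-08), and the direct difference of IL-33 from IL-4 was 1.85-fold lower (-0.89 ± 0.06, adjusted p = 3.4e-11). Got2 again did not pass (0.07 ± 0.05, adjusted p = 0.247), so the ratio of Got2 to Got1 per kilobase was 0.795 ± 0.0453 in unstimulated cells, 0.996 ± 0.0897 under IL-33 and 0.555 ± 0.0255 under IL-4. Glud1 fell 1.13-fold with IL-4 (adjusted p = 0.00619).

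**Figure D3:**
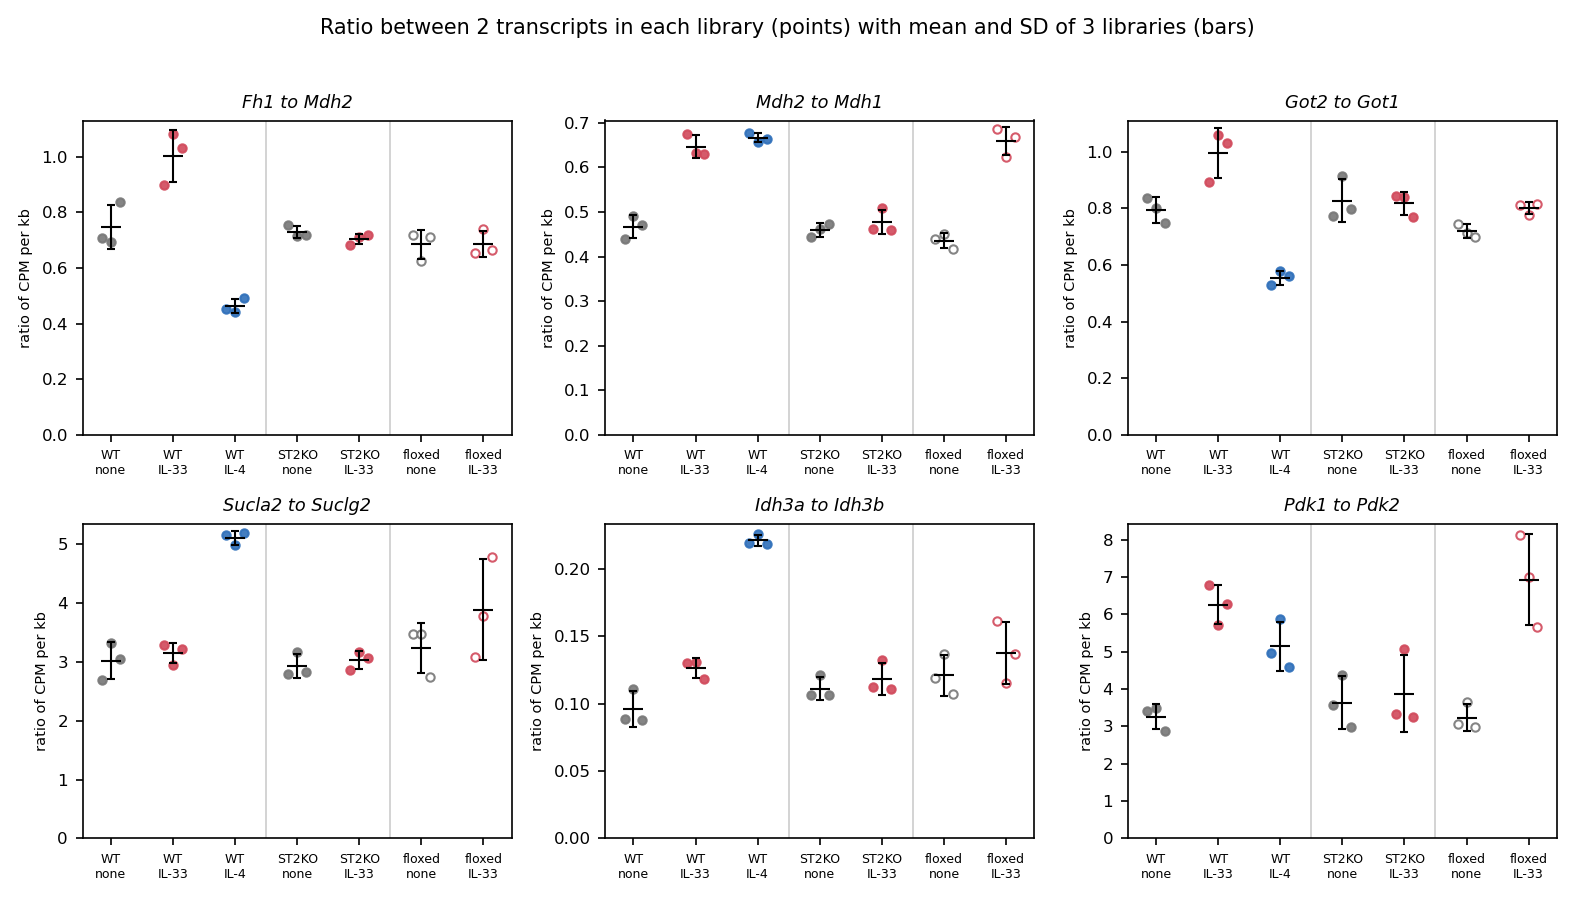
Ratio between 2 members in CPM per kilobase of exon (y axis, linear from 0) in each library; points are libraries and bars the mean ± SD of 3. In wild-type cells the ratio of Fh1 to Mdh2 is highest with IL-33 and lowest with IL-4, that of Mdh2 to Mdh1 is higher with either cytokine, and those of Sucla2 to Suclg2 and Idh3a to Idh3b are highest with IL-4.

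Comparing IL-33 with IL-4 directly, 7 members were higher with IL-33 and 14 lower, where 19.2% of all genes were called higher and 20.7% lower (median -0.07 log2 for members and -0.01 for all genes). The 7 were Suclg2 (1.53-fold), Fh1 (1.52-fold), Pdk1, Pcx (1.36-fold), Idh1 (1.22-fold), Pdk2 and Pdk3. The IL-33 and IL-4 libraries of Fh1 did not overlap (difference 0.60 ± 0.06 log2, adjusted p = 1.5e-08), and neither did those of Suclg2 (0.62 ± 0.12, adjusted p = 1.4e-04). Those of Pcx and of Pdk2 overlapped. The 14 lower with IL-33 were led by Got1, Idh3a (1.65-fold), Mdh2 (1.43-fold) and Aco1 (1.41-fold). The rest were Mdh1, Suclg1, Pdp1, Pdhb, Mpc2, Dlat, Ogdh, Idh3g, Dld and Dlst, at 1.39- to 1.10-fold. So 5 of the 8 genes for pyruvate entry and 6 of the 11 TCA cycle genes were lower with IL-33 than with IL-4, and all 3 kinases with counts were higher. The call of Pcx was lost without replicates 1 or 2 of IL-33 or 3 of IL-4 (adjusted p = 0.106 to 0.178), that of Dld without replicate 1 of IL-4 (0.0524) and that of Dlst without replicate 2 of IL-33 (0.0986).

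Among 35 further genes listed for the same pathway, 30 could be tested. IL-33 raised 11 and lowered 4, and IL-4 raised 13 and lowered 5. With IL-33 the largest rise was that of Irg1 (also Acod1), which makes itaconate from the cycle's cis-aconitate: 3.30 ± 0.976 CPM without cytokine and 73.1 ± 5.33 CPM with IL-33 (22.2-fold, adjusted p = 3.7e-11). Its change with IL-4 did not pass (1.58-fold, adjusted p = 0.0851). The lactate dehydrogenase subunits Ldha and Ldhb rose 2.07- and 1.54-fold with IL-33 and 1.91- and 1.85-fold with IL-4. Slc25a13, a mitochondrial aspartate-glutamate carrier, moved as Got1 did: it fell 1.28-fold with IL-33 and rose 2.10-fold with IL-4. Pck2, the mitochondrial phosphoenolpyruvate carboxykinase, fell 2.02-fold with IL-33 and 1.98-fold with IL-4. The other leading falls were those of the glutamine transporter Slc38a1 with IL-33 (1.18-fold), and of Slc38a2 (1.38-fold) and Glul, glutamine synthetase (1.34-fold), with IL-4.

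The next comparison asked whether the IL-33 changes need its receptor chain. In ST2KO-labelled cells none of the 32 tested members passed in edgeR, and their changes ranged from -0.16 to 0.24 log2. Over all genes 0% were called higher and 0% lower. At an unadjusted p under 0.05 there were 1 of the 32 members, Mpc2 (-0.16 ± 0.07), and 507 of the 14473 genes (3.50%). DESeq2 and limma-voom also called no gene. For Fh1 the libraries held 65.1, 66.8 and 62.9 CPM without cytokine and 63.1, 67.3 and 60.7 CPM with IL-33, fully overlapping, with a 95% interval of the fold from 0.900 to 1.07. For Idh1 they held 500, 460 and 460 CPM and 501, 452 and 460 CPM (interval 0.909 to 1.09). Pdk1 varied more: 177, 210 and 168 CPM without cytokine and 160, 238 and 164 CPM with IL-33, replicate 2 being the highest in both groups (interval 0.853 to 1.21).

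The difference between the ST2KO-labelled and wild-type IL-33 responses was tested directly as an interaction. It was called for 12 members, 11 with a lower response in ST2KO-labelled cells and 1 with a higher one, where 12.1% of all genes were called lower and 10.6% higher. The members' median difference was -0.15 log2, against 0.00 for all genes. The 4 largest were Fh1 (-0.78 ± 0.08 log2, adjusted p = 2.9e-07), Pdk1 (-0.78 ± 0.17, 0.00127), Pdk3 (-0.70 ± 0.13, 2.3e-04) and Idh1 (-0.59 ± 0.09, 2.4e-05). Pdk3 held 12.7, 12.4 and 12.3 CPM in ST2KO-labelled cells without cytokine and 9.75, 12.6 and 11.4 CPM with IL-33. Got1, which fell with IL-33 in the wild type, was the member with the higher response (0.30 ± 0.08, adjusted p = 0.0111). The calls of Aco1, Dld and Pdp1 were lost without any of 8, 6 and 3 of the 12 libraries (adjusted p up to 0.15, 0.0814 and 0.0615), WT replicate 2 with IL-33 among them for all 3. Idh3a (-0.38 ± 0.14, adjusted p = 0.0548) and Me2 (-0.33 ± 0.12, 0.0543) lay just outside the threshold. Both were called with DESeq2 (adjusted p = 0.0395 and 0.0433) and without the expression filter (0.0172 and 0.0271), and without any of 3 and 4 libraries. Aco1, Dld and Pdp1 also lost their calls in a fit of only the groups compared (0.0703, 0.0703 and 0.0600).

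Without cytokine, ST2KO-labelled and wild-type cells differed in none of the members by edgeR's test, where 0.871% of all genes were called higher and 0.484% lower. Only Pcx had an unadjusted p under 0.05, at 4.61, 4.02 and 4.06 CPM against 6.40, 6.07 and 5.66 CPM in the wild type (-0.51 ± 0.16, adjusted p = 0.117). Its libraries did not overlap. DESeq2 and limma-voom also called no member.

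In floxed-labelled cells IL-33 raised 19 members and lowered 2 (median 0.24 log2), where 17.1% of all genes were called higher and 16.3% lower (under upper-quartile scaling, 2001 genes were higher and 2985 lower, against 2471 and 2364, and 16 members higher and 2 lower). Neutrophil genes were called higher too, 6 of 9 (summed level 452 to 533 CPM, against 171 to 192 without cytokine). Of 6 mast cell and basophil genes, 3 were higher and 1 lower (sum 9.96 to 13.5 against 9.04 to 14.2 CPM). Of 8 macrophage genes 5 were higher and 1 lower, and of 8 dendritic cell genes 2 were higher and 1 lower. The eosinophil list had 1 gene higher, the lymphocyte list 1 lower, and the stromal list 1 higher and 2 lower. Among 10 proliferation genes, 4 were lower (800 to 916 against 942 to 1082 CPM). Their part in the members' changes was not tested. No library is shared with the wild-type comparison, and 16 members were called in the same direction in both, 88.9% of the 18 called in the wild type and 76.2% of the 21 called here. The same shares over all genes were not computed, so these are not read as particular to the members. The largest changes were those of Me1, Idh1, Pdk3 and Pdk1. Idh1 went from 434, 414 and 466 CPM to 651, 663 and 738 CPM (1.56-fold, 0.64 ± 0.06 log2, adjusted p = 2.6e-08). Pdk3 went from 10.7, 11.3 and 9.96 CPM to 17.2, 16.5 and 15.9 CPM (1.55-fold), and Pdk1 from 153, 178 and 148 CPM to 253, 248 and 234 CPM (1.53-fold), all without overlap.

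Me1 (chromosome 9, 86581371 to 86695953) went from 1.99, 0.978 and 1.36 CPM to 2.96, 2.33 and 2.89 CPM in floxed-labelled cells (1.88-fold, adjusted p = 0.0102). That call rested on a low library: without replicate 2 of the unstimulated floxed-labelled cells the adjusted p was 0.0642. The smaller calls of Idh2, Idh3b, Idh3a and Aco1 were likewise lost without any of 4, 4, 2 and 1 of the 6 libraries (adjusted p up to 0.124), replicate 2 of the IL-33 cells in the case of Aco1. Glud1 and Got1 were called in the wild type and not here, while Dlat, Idh3b, Me1, Ogdh and Pdk2 were called here and not in the wild type. For none of these 7 did the test of the difference itself pass (adjusted p = 0.187 to 0.730).

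**Figure D4:**
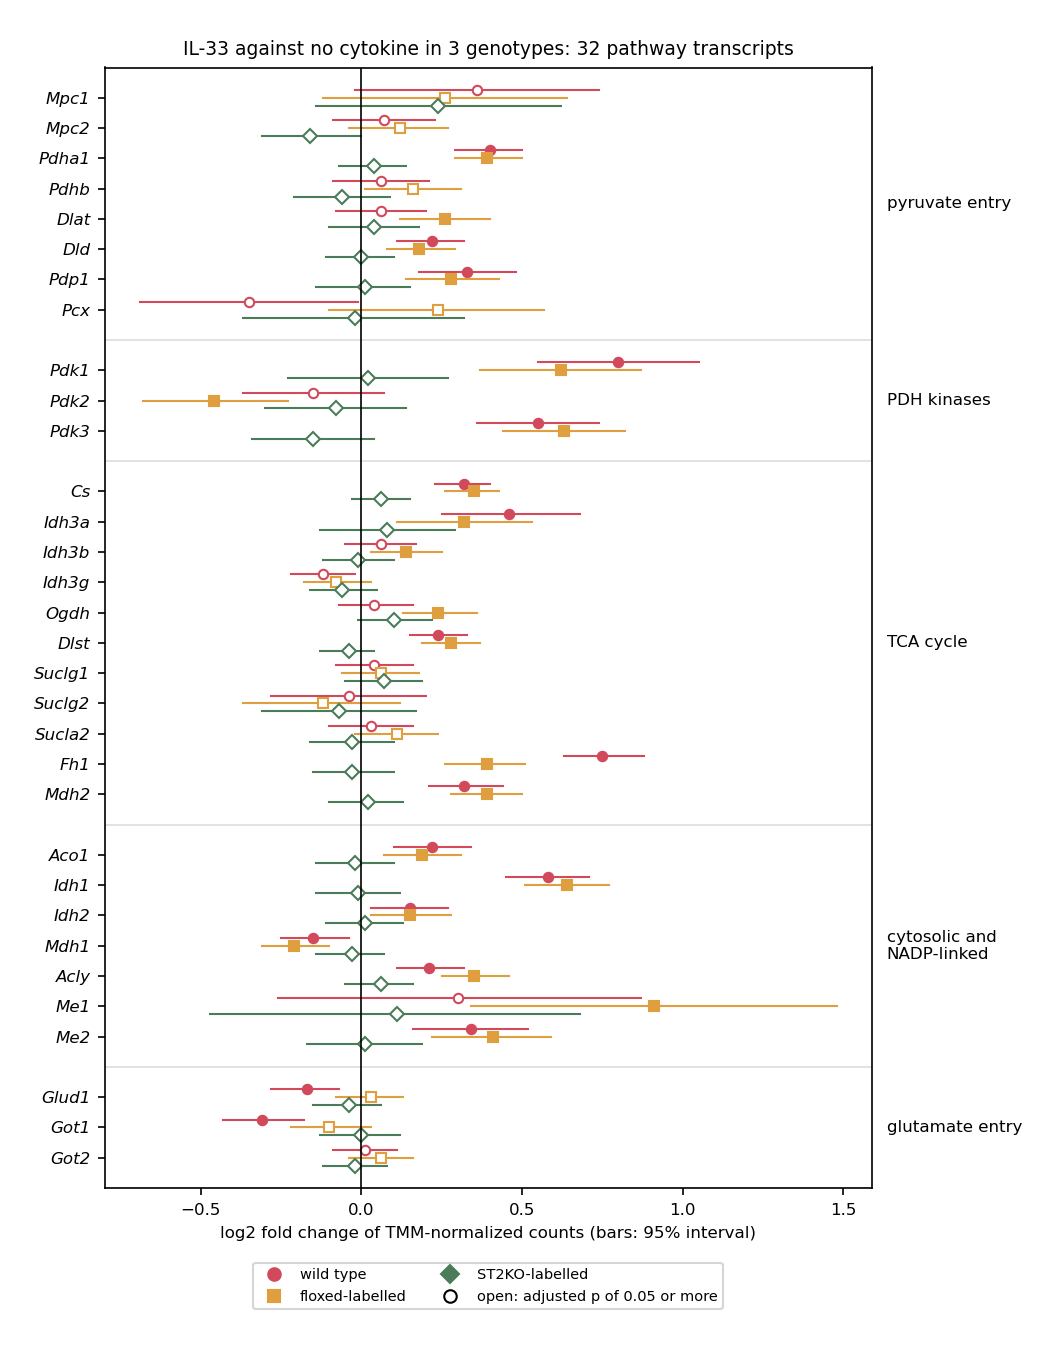
Log2 fold change with IL-33 against no cytokine (x axis) of 32 members (rows, grouped by role) in wild-type (circles), floxed-labelled (squares) and ST2KO-labelled (diamonds) cells. Bars are 95% intervals from the edgeR fit and open symbols did not pass the adjusted p of 0.05; all diamonds are open, and the floxed-labelled Fh1 lies between the other two.

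By the same test, Fh1 was the 1 member called different between the floxed-labelled and wild-type IL-33 responses, where 0.539% of all genes were called higher and 0.677% lower. It stood at 63.0, 56.3 and 63.6 CPM without cytokine and 78.8, 82.1 and 78.6 CPM with IL-33 in floxed-labelled cells. That is a 1.31-fold rise (0.39 ± 0.06 log2), against 1.68-fold in the wild type, and the IL-33 libraries of the 2 genotypes did not overlap. The difference of the responses was -0.36 ± 0.08 (adjusted p = 0.0329). It was not called in a fit of only the groups compared (-0.36, 0.0554), and it lost its call without any of 8 of the 12 libraries (adjusted p = 0.0552 to 0.131), all but replicate 2 of both floxed-labelled groups, replicate 3 of the unstimulated and replicate 1 of the IL-33 wild-type cells. Got1 (0.21 ± 0.08, adjusted p = 0.266) was called higher without replicate 1 of the IL-33 wild-type cells (0.0333).

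Compared within one condition, floxed-labelled and wild-type cells differed in 1 member without cytokine and 3 with IL-33. Without cytokine, 7 of 9 neutrophil genes (171 to 192 against 121 to 134 CPM in sum) and 7 of 10 proliferation genes (942 to 1082 against 666 to 724 CPM) were also higher in floxed-labelled cells. Under IL-33, 5 of 9 neutrophil genes were higher and 1 lower (452 to 533 against 378 to 523 CPM), and 3 of 10 proliferation genes were higher. Their part in the members' differences was not tested. Without cytokine only Idh1 was called, lower in floxed-labelled cells (-0.19 ± 0.06 log2, adjusted p = 0.0467), where 5.60% of all genes were called higher and 4.25% lower. Its groups, 434, 414 and 466 against 492, 480 and 532 CPM, did not overlap, but the call was lost without replicates 1 or 2 of the floxed-labelled or 1 or 3 of the wild-type cells (adjusted p = 0.0811 to 0.216). Idh3a (0.28 ± 0.10, adjusted p = 0.0824) was called higher without replicate 2 of the wild type (0.0344). Under IL-33, Fh1 (-0.47 ± 0.06, adjusted p = 7.8e-06) and Pdk2 (-0.36 ± 0.11, 0.0287) were lower in floxed-labelled cells and Got1 was higher (0.25 ± 0.06, 0.00655), where 5.85% of all genes were called lower and 5.50% higher. Pdk2 held 12.7, 14.4 and 16.8 CPM there against 16.3, 20.8 and 19.1 CPM, with overlap, and was not called without any of 4 libraries, replicates 1 and 2 of the floxed-labelled and 2 and 3 of the wild-type cells (adjusted p = 0.0799 to 0.177). Got1 held 67.6, 68.3 and 70.1 CPM there, above the 3 wild-type IL-33 libraries. The X-linked members Pdha1, Pdk3 and Idh3g were not called between these genotypes in either condition, with differences of -0.18 to -0.04.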

How the data were processed

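Whole-transcriptome RNA of 21 libraries was sequenced as paired reads on a NovaSeq after a NEBNext Ultra preparation, per the labels' protocols. The authors deposited raw read counts per gene. HISAT2 2.0.5, HTSeq 0.6.1 and DESeq2 1.22.2 and the build GRCm38 (mm10) are named in the submitters' processing notes; the annotation and the strand setting are not given in the sources used here, so reads of genes that overlap on opposite strands may not have been separated. The counts were analysed as deposited. The 14473 of 47069 rows passing edgeR's filterByExpr over the 7 groups (at least 99.97% of each library's counts) were scaled by TMM and fitted in one quasi-likelihood model of all 21 libraries with 14 residual degrees of freedom (R 4.3.3, edgeR 4.0.16). P-values were adjusted by the Benjamini-Hochberg method over all genes tested, within each of 10 comparisons, with calls made below 0.05 (two-sided). Changes are given as log2 ± SE with 95% intervals. Ratios, shares and the order of levels among members used CPM per kilobase of exon (GENCODE M21), and ratios are descriptions with no test. Sums over lists, the genes that carry them, and the level of Mpc1-ps beside Mpc1 are in plain CPM, not scaled by length. Pdk4 had no counts and was not tested.

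Alternatives were upper-quartile scaling, DESeq2 1.42.0, limma-voom (limma 3.58.1), no expression filter, the replicate number as a block, only the groups compared, and each library left out in turn. The replicate numbers were not taken to pair samples. No 2 libraries of a group agreed within sampling noise (chi-square per degree of freedom of 6.40 to 23.9 over 21 pairs). Library values with folds were given for members called with a change of at least 1.5-fold in wild-type cells with either cytokine, and for up to 4 called members with the largest change in each other comparison. The members and all lists were chosen with earlier results of these data known.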

Additional observations from a re-analysis of the deposited data

Results flagged for a closer look

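For 13 values, the IL-33 response of a member differed between genotypes by the interaction test in edgeR (adjusted p under 0.05). In ST2KO-labelled against wild-type cells the difference of the log2 responses was -0.78 for Fh1, -0.78 for Pdk1, -0.70 for Pdk3, -0.59 for Idh1 and -0.36 for Pdha1. It was -0.32 for Pdp1, -0.31 for Mdh2, -0.28 for Dlst, -0.26 for Cs, -0.24 for Aco1 and -0.22 for Dld. For Got1, which fell with IL-33 in the wild type, it was 0.30. In floxed-labelled against wild-type cells the difference was called for Fh1, at -0.36. Each group held 3 libraries, too few for a search for libraries that stand apart within a group.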

How the results depend on the processing

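Of 1709 member values recomputed under the alternatives, 1582 kept their call or lack of one. A further 98 kept direction and lost the call, and 29 kept direction and gained it. Of the values called in either fit, 0 changed direction, and direction was not compared for values called in neither. Over the settings other than left-out libraries, the count of called members was 16 to 19 for IL-33 and 23 to 25 for IL-4 in wild-type cells, 18 to 21 for IL-33 against IL-4 and for IL-33 in floxed-labelled cells, 0 for IL-33 in ST2KO-labelled cells and 9 to 14 for the ST2KO-labelled interaction. With a library left out these counts were 15 to 18, 23 to 24, 18 to 20, 18 to 20, 0 and 10 to 13. For the floxed-labelled interaction the count of 1 became 2 with the replicate block, which added Glud1 (0.20, adjusted p = 0.0489), and 0 with only the groups compared, and was 0 to 2 with a library left out. Without cytokine, the ST2KO-labelled difference went from 0 members to 1 with the replicate block (Pcx, -0.52, adjusted p = 0.0383), and stayed at 0 with any library left out. The floxed-labelled difference went from 1 to 2 without the expression filter, and was 0 to 2 with a library left out; under IL-33 it was 3 to 4, and 2 to 3 with a library left out. The small rise of Fh1 with IL-4 was also not called under upper-quartile scaling (adjusted p = 0.134), DESeq2 (0.0545), no filter (0.115) or only the groups compared (0.0549). For IL-33 against IL-4, Dlst and Pdk3 lost their calls without the filter (0.148 and 0.106) and, with Pcx, in the fit of only the groups compared (0.0529, 0.0516 and 0.0708). In floxed-labelled cells the IL-33 calls of Aco1, Idh2 and Idh3b were lost under upper-quartile scaling (0.0678, 0.172 and 0.205), those of Idh2 and Idh3b without the filter (0.162 and 0.144), and that of Idh3b with only the groups compared (0.0556). In the ST2KO-labelled interaction, Aco1 and Dld lost theirs under upper-quartile scaling (0.0871 and 0.0624) and without the filter (0.0541 and 0.0854). Between floxed-labelled and wild-type cells under IL-33, only the groups compared took away the call of Pdk2 (0.0953) and gave one to Pdk1 (-0.22, 0.0199), which was also called without the filter (-0.23, 0.00171); without cytokine, no filter gave one to Idh3a (0.28, 0.0253). The cause of these changes was not tested. Of 24 same-numbered pairs of libraries, 1 correlated above 0.1 in their deviations from the group means, although 18 of 21 libraries correlated best with their own number; the numbers were not taken as a pairing, and the block moved no other count of members by over 1.5 times; it also gave calls to Pdk1 with IL-4 (0.24, adjusted p = 0.0196) and, in the ST2KO-labelled interaction, to Idh3a (-0.38, 0.0326) and Me2 (-0.33, 0.0460). Over all genes, the floxed-labelled interaction called 78 higher and 98 lower, against 196 and 175 with DESeq2, 229 and 326 without the filter and 182 and 173 with the block. The ST2KO-labelled difference without cytokine called 126 and 70, against 217 and 186 with DESeq2, 535 and 340 without the filter and 300 and 290 with the block. IL-33 in ST2KO-labelled cells called 0 and 0, against 30 and 40 without the filter. Depth limits Pcx, Me1 and Mpc1 most, the members with the lowest levels per kilobase after Pdk4.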
